A study of Drosophila melanogaster with 30 samples.

Results

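Silencers are stretches of DNA that lower the expression of a gene in particular cells. This report describes the second round of a silencer screen in Drosophila embryos, in which low-GFP mesodermal cells were compared with all mesodermal cells. The 12 libraries were chosen by round and by sorted population from their titles: 6 from CD2+ cells sorted for reduced GFP and 6 from all CD2+ cells, of 30 libraries in the series. Each counts the same list of reporter elements, of which 155 could be tested. The other 33 did not have enough reads in enough libraries to pass the filter on low counts.

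In every group the embryos carried a GFP reporter driven by a strong ubiquitous enhancer, with 1 candidate element from a pool beside it. Males, each with a random pool member, were mated with twi:CD2 females, in whose offspring CD2 is made under the control of twist, a gene of the early mesoderm. Antibody to CD2 then labelled mesodermal cells. Embryos were collected for 2.25 h and aged for 11 h at 18 °C, dissociated and sorted, and the inserts were recovered from genomic DNA by nested PCR. Both populations of a day came from the same collection. Days 1 to 3 form experiment 1 and days 4 to 6 experiment 2. Both groups therefore carry the same reporter and the same marker, and the GFP gate alone sets them apart. The low-GFP cells are themselves part of the CD2+ population. The libraries hold DNA, so no transcript marker of mesoderm could be checked.

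Mesoderm arises from the ventral side of the embryo, lateral cells form the neuroectoderm and dorsal cells the dorsal ectoderm. In the mesoderm, repressors such as Snail keep genes of neighbouring territories off, and an enhancer of such a gene can act as a silencer there. An element that lowers GFP in mesodermal cells places its carriers in the low-GFP gate, so its share of the low-GFP library is the readout. The count of an element depends on the number of carrier cells and on how well its insert amplifies, and these cannot be told apart within 1 population. Levels are therefore compared between populations and not between elements.

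Each element was identified by a barcode of 12 bases. All barcodes were distinct, the closest pairs differed at 3 positions, and the same barcode stood for the same element in all 12 libraries. The barcodes of the paired fragments of the genes pnr and ind are shown because these fragments are compared below. Capitals mark the positions at which the barcodes of a pair differ, 10 for pnr (chromosome arm 3R) and 8 for ind (3L).
pnr_P3: TTgGAcACAGCT
pnr_P4: AGgTCcCATAGG
ind_moduleA: tGGTgaAGCtGG
ind_moduleBC: tTTAgaCCGtCC
The genome coordinates and sequences of the elements themselves were not used here.

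Depth was 2928510 to 4584710 read 1 counts in low-GFP libraries and 3477673 to 5488936 in CD2+ libraries. A library held 154 to 163 elements, with 137 elements in all 12 libraries and 16 in none. Abundances are given as TMM-scaled CPM. For counting error only, a count of 0 allowed up to 3 counts. This is 0.547 to 1.02 CPM before TMM scaling, depending on the library. Replicates varied widely, with a fitted coefficient of variation of 1.10, and the number of cells behind each library is not known.

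Of the 155 elements that passed the filter on low counts, 22 differed between low-GFP and CD2+ cells in edgeR's quasi-likelihood test at a Benjamini-Hochberg adjusted p under 0.05, or 14.2% of those tested. The 14 elements called higher in low-GFP cells (9.03%) were 2 fragments of pnr, 1 each of tup, dpp, ind, ths, sog, oc, hb, gsb and Dll, and 3 elements named by number. The 8 called lower (5.16%) were 4 E. coli control fragments, a Ubx fragment and 3 numbered elements. Log2 fold changes, low-GFP over CD2+, ran from 1.38 to 4.17 among the elements called higher and from -7.81 to -1.12 among those called lower, while the median over all 155 tested was -0.20. Before adjustment, 42 elements had a p under 0.05. This fit did not use the pairing of the populations by day. With collection day as a block, 31 elements were called, 20 higher and 11 lower, with all 22 among them. The fitted coefficient of variation was then 0.88. Libraries of the same group did not overlap with the other group for 10 elements higher in low-GFP cells (6.45% of those tested) and for 5 lower (3.23%). On 6 of 6 days, 23 of the 155 tested elements were higher in low-GFP cells and 18 were lower.

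**Figure D1:**
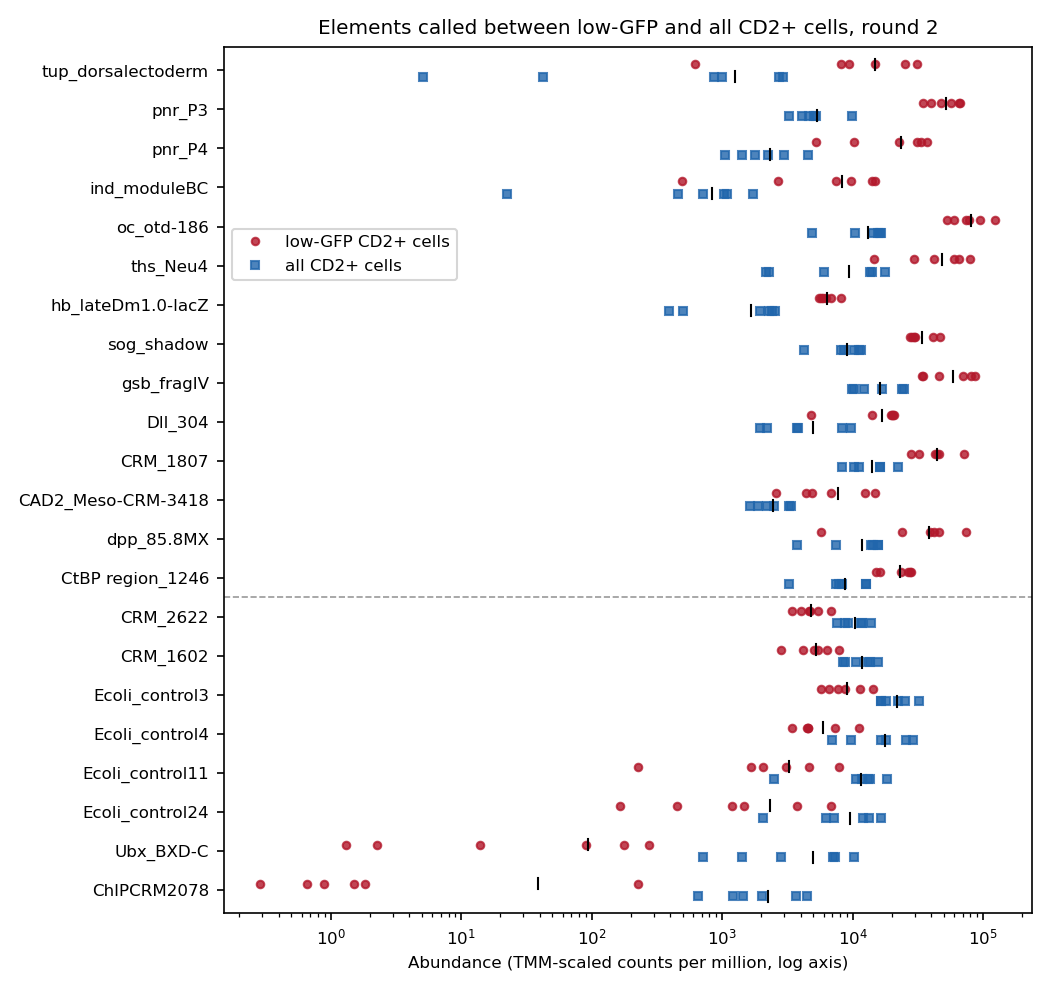
Abundance of the 22 called elements in the 6 low-GFP (red circles) and 6 CD2+ libraries (blue squares), in TMM-scaled CPM on a log axis, with black bars at the group means. The 14 elements above the dashed line were higher in low-GFP cells and the 8 below it lower, and pnr_P3 and oc_otd-186 show no overlap between groups while tup_dorsalectoderm and dpp_85.8MX do.

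Elements of dorsal ectoderm genes included the 3 with the largest log2 fold changes among the calls. Of the 8 listed, 7 were tested, 4 were called higher and none lower, with a median log2 fold change of 1.98 against -0.20 over all elements. Among all 155 tested elements, 9.03% were called higher and 5.16% lower. With total-count scaling 2 of the 4 calls remained, those of pnr_P3 and pnr_P4. pannier (pnr) encodes a GATA transcription factor that sets dorsal ectoderm fate. pnr_P3 had 34550 CPM in the lowest, 52100 as the median and 66550 in the highest low-GFP library, against 3278, 4857 and 9873 CPM in CD2+ libraries. The lowest low-GFP library thus stood above the highest CD2+ library. The means were 51860 ± 13330 CPM in low-GFP and 5366 ± 2323 CPM in CD2+ cells (SD, n = 6 each), a log2 fold change of 3.29 (edgeR adjusted p = 1.52e-05, SE 0.30). pnr_P4, the other fragment of the gene, had 5203, 26980 and 37210 CPM in low-GFP libraries, against 1050, 2016 and 4546 CPM in CD2+ libraries. These groups did not overlap either, and the log2 fold change was 3.27 (edgeR adjusted p = 5.61e-05, SE 0.38). The daily log2 difference lay between 2.72 and 3.85 for pnr_P3 and between 1.53 and 3.99 for pnr_P4.

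tailup (tup) encodes a LIM-homeodomain factor of the dorsal ectoderm and heart. tup_dorsalectoderm had 624, 12150 and 30920 CPM in low-GFP libraries (lowest, median, highest), against 5.08, 928 and 2941 CPM in CD2+ libraries. It was higher in low-GFP cells on 6 of 6 days although the groups overlapped, and its log2 fold change of 4.17 was the largest among the calls (edgeR adjusted p = 0.0398, SE 1.25). The call was lost in 15 of 18 fits that left out 1 day or 1 library, with adjusted p up to 0.158, and with total counts (edgeR adjusted p = 0.0637) and read 2 counts (0.0593). decapentaplegic (dpp) encodes the BMP ligand that patterns the dorsal side, and 4 of its fragments were tested. dpp_85.8MX had 5701, 40670 and 74550 CPM in low-GFP libraries, against 3719, 14110 and 15670 CPM in CD2+ libraries, a log2 fold change of 1.60 (edgeR adjusted p = 0.0398, SE 0.48) with overlapping groups. This call too was lost in 15 of 18 such fits, with adjusted p up to 0.154, and with total counts (edgeR adjusted p = 0.1) and read 2 counts (0.0679). With collection day as a block dpp_85.8MX was called (edgeR adjusted p = 0.00441), as was tup_dorsalectoderm (0.0304). The other dpp fragments were not called: dpp_VRR had a log2 fold change of 1.98 and was higher on 6 of 6 days (edgeR adjusted p = 0.253), dpp_construct10 had -1.53 and was lower on 6 of 6 days (0.181), and dpp_BS3.1 had -1.63 (0.469).

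All 12 elements of the neuroectoderm and midline list were tested, of which 3 were called higher and none lower, with a median log2 fold change of 2.26. The shares over all tested elements were 9.03% higher and 5.16% lower. thisbe (ths) encodes an FGF ligand made by the neuroectoderm. ths_Neu4_early_embryonic_enhancer had 14510, 50960 and 79950 CPM in low-GFP libraries, against 2153, 9869 and 17600 CPM in CD2+ libraries. The groups overlapped slightly, but the element was higher in low-GFP cells on each day, by a log2 fold change of 2.60 (edgeR adjusted p = 0.000227, SE 0.35). short gastrulation (sog) encodes an extracellular antagonist of Dpp. sog_shadow had 27600, 29870 and 47030 CPM in low-GFP libraries, against 4241, 9374 and 11650 CPM in CD2+ libraries, without overlap. Its log2 fold change was 1.92 (edgeR adjusted p = 0.000342, SE 0.27). The second sog fragment, sog_broad_lateral_neurogenic_ectoderm, had the same log2 fold change of 1.92 but was not called (edgeR adjusted p = 0.202, SE 0.95). It had 21.8 CPM in 1 low-GFP library and was higher in low-GFP cells on 5 of 6 days.

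intermediate neuroblasts defective (ind) encodes a homeodomain factor of the intermediate neural column. ind_moduleBC had 489, 8625 and 14750 CPM in low-GFP libraries, against 22.6, 872 and 1727 CPM in CD2+ libraries. The groups overlapped through 1 low-GFP library, and the log2 fold change was 3.13 (edgeR adjusted p = 0.0277, SE 0.82). ind_moduleA had a larger log2 fold change of 4.45 and was higher on 6 of 6 days but was not called (edgeR adjusted p = 0.145, SE 1.77). Its CPM ran from 4.72 to 34040 in low-GFP and from 0.942 to 1566 in CD2+ cells. With collection day as a block it was called (edgeR adjusted p = 0.0152).

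Elements of vnd, the homeobox gene of the ventral neural column, and of brk, a repressor of Dpp target genes, were as large in fold change and as uneven. vnd_NEE had a log2 fold change of 4.32 (edgeR adjusted p = 0.233, SE 2.34) with 0 to 16140 CPM in low-GFP and 0 to 988 CPM in CD2+ libraries. brk_NEE-long had 4.32 (edgeR adjusted p = 0.153, SE 1.81) and vnd_743 had 3.04 (edgeR adjusted p = 0.455, SE 2.39). rho_NEE_long, of the rhomboid protease gene, had 1.51 (edgeR adjusted p = 0.124) and was called with collection day as a block (0.0214). The 3 members below 0 on this list, SoxN_565, pdm2_CRM6 and SoxN_5830, had log2 fold changes of -0.93, -0.88 and -0.82 and were not called.

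**Figure D2:**
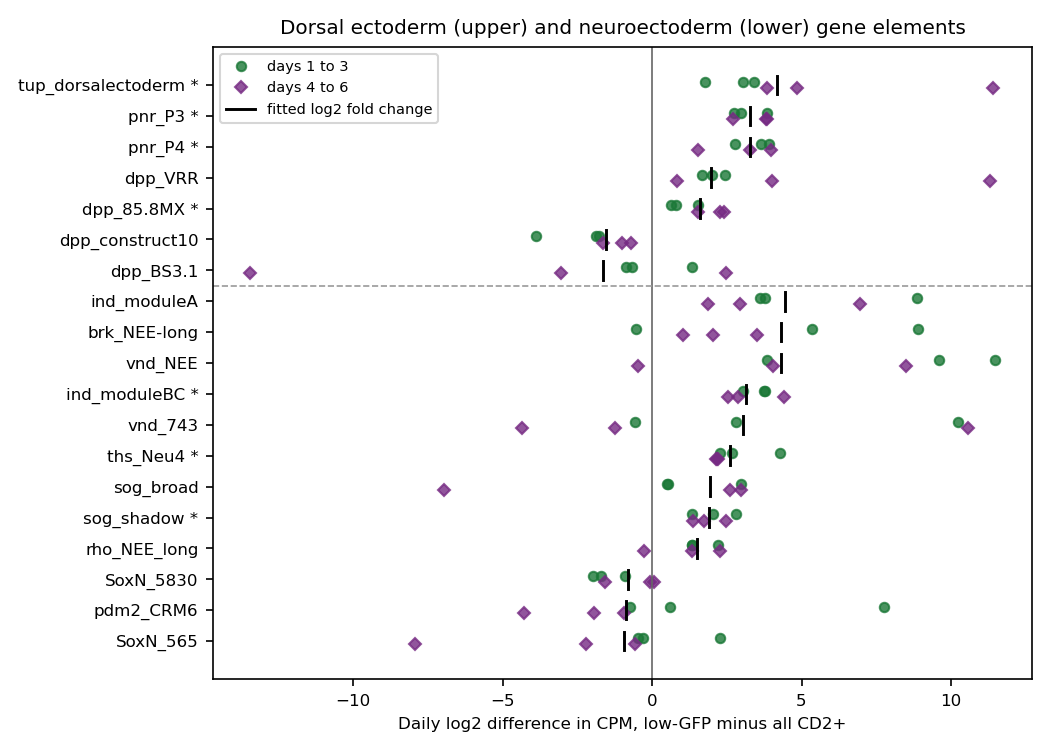
Difference in log2 CPM, low-GFP minus CD2+, on each of 6 days for 7 tested dorsal ectoderm elements (upper) and 12 neuroectoderm elements (lower), with black bars at the fitted log2 fold change and asterisks at called elements. The points of pnr_P3 lie between 2.72 and 3.85, whereas those of vnd_NEE and brk_NEE-long spread on both sides of 0.

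Head, segmentation and appendage genes gave the next calls. orthodenticle (oc) encodes a homeodomain factor of the anterior head. oc_otd-186 had 53260, 76360 and 123900 CPM in low-GFP libraries, against 4921, 14990 and 16550 CPM in CD2+ libraries. The groups did not overlap, the means were 80790 ± 25600 CPM in low-GFP and 13000 ± 4549 CPM in CD2+ cells (SD, n = 6 each), and the log2 fold change was 2.63 (edgeR adjusted p = 5.61e-05, SE 0.30). It was the largest single element in 4 of 6 low-GFP libraries, at up to 9.34% of counts. The second listed oc fragment, oc_otd_EHE, had no read in any of the 12 libraries.

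hunchback (hb), a gap gene, was represented by 5 fragments. hb_lateDm1.0-lacZ had 5534, 6075 and 8126 CPM in low-GFP libraries, against 391, 2105 and 2535 CPM in CD2+ libraries. These groups did not overlap, and the log2 fold change was 2.03 (edgeR adjusted p = 0.0249, SE 0.52). The call was lost with total counts (edgeR adjusted p = 0.0706) and in 7 of 18 leave-out fits, with adjusted p up to 0.0847. hb_distal_minimal, hb_HG4-6 and hb_HG4-7 had log2 fold changes of 0.80, -0.04 and -0.65 and were not called, and hb_HG4-5 had no reads. Over the 11 tested gap, terminal and head elements, 2 were called higher, where 9.03% of all tested elements were, and none lower. Their median was 0.14. That median was -0.39 with total-count scaling and 0.69 with scaling to the E. coli controls. hkb_0.6kbRIRV, of the terminal gap gene huckebein, had 2.83 and was higher on 6 of 6 days without a call (edgeR adjusted p = 0.418, SE 2.05). On days 1 and 4 it was near the counting floor, at 1.96 and 6.0 CPM in low-GFP cells and 0.697 and 1.4 CPM in CD2+ cells.

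gooseberry (gsb) encodes a Pax factor of segment polarity. gsb_fragIV had 34280, 58010 and 86830 CPM in low-GFP libraries, against 9863, 14500 and 24800 CPM in CD2+ libraries, without overlap, a log2 fold change of 1.84 (edgeR adjusted p = 0.00193, SE 0.33). Dll_304, of the limb homeobox gene Distal-less, had 4824, 19830 and 20920 CPM in low-GFP libraries, against 1946, 3812 and 9739 CPM in CD2+ libraries. These groups overlapped, and the log2 fold change was 1.76 (edgeR adjusted p = 0.0293, SE 0.48). The Dll_304 call was lost in 11 of 18 fits that left out a day or a library, with adjusted p up to 0.123, and with total counts (edgeR adjusted p = 0.0706). With collection day as a block Dll_304 was called (edgeR adjusted p = 0.00513). None of the 3 tested pair-rule elements, the 4 of neural lineage genes or the 4 of pigment and catecholamine genes was called. With 14.2% of all tested elements called, the absence of a call in lists this small says little.

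A large part of the pool was named for chromatin features or bound co-repressors. CtBP and Groucho are co-repressors that DNA-bound repressors recruit. Among 21 tested CtBP regions, 1 was called higher, where 9.03% of all tested elements were: E_0_12h_dCtBP7667.region_1246, with 15210, 25170 and 28150 CPM in low-GFP libraries, against 3265, 8019 and 12660 CPM in CD2+ libraries and no overlap (log2 fold change 1.38, SE 0.32, edgeR adjusted p = 0.0131). The median over CtBP regions was -0.46, against -0.20 over all elements, and 0.16 with E. coli scaling, under which 3 CtBP regions were called higher. With total counts region_1246 lost its call (edgeR adjusted p = 0.1), and it was lost in 3 of 18 leave-out fits. None of the 17 tested Groucho regions (median -0.28) or the 10 tested regions of open chromatin with H3K27me3, a Polycomb mark (median -0.44), was called with TMM scaling and no block, and with E. coli scaling these medians were 0.38 and 0.19. With total counts 2 CtBP, 1 Groucho and 2 H3K27me3 regions were called lower. DHS+K27me3_one-hit_103 had 11420, 19870 and 41350 CPM in low-GFP libraries, against 7090, 12020 and 19880 CPM in CD2+ libraries. Its groups overlapped, and it was higher in low-GFP cells on 6 of 6 days (log2 fold change 0.84, edgeR adjusted p = 0.153). Blocking on the day led to a call (edgeR adjusted p = 0.0214). Scaling to the E. coli controls called 2 H3K27me3 regions higher, this one and DHS+K27me3_one-hit_2281. The Groucho region E0_12_GROAviva_ChIP_chip.region_439 had 4537 to 26440 CPM in low-GFP and 1.39 to 3108 CPM in CD2+ libraries. It did not overlap between groups but missed the threshold with the block (edgeR adjusted p = 0.0663) and without it (log2 fold change 2.74, SE 1.16, edgeR adjusted p = 0.153). The fitted changes of CAD2_Meso-CRM-3418 and CRM_1807 were 1.62 (edgeR adjusted p = 0.0398) and 1.65 (0.0015). CRM_1807 had 28180, 43310 and 70760 CPM in low-GFP libraries, against 8312, 13730 and 22370 CPM in CD2+ libraries, without overlap. The CAD2_Meso-CRM-3418 groups overlapped, and its call was lost in 15 of 18 leave-out fits, with adjusted p up to 0.176, and with total counts (edgeR adjusted p = 0.148) and read 2 counts (0.0594). CRM_1734 had the highest fitted log2 fold change of any tested element, 5.17, and was not called without a block (edgeR adjusted p = 0.153, SE 2.13). It was higher in low-GFP cells on 6 of 6 days, and with collection day as a block it was called with a log2 fold change of 3.93 (edgeR adjusted p = 0.0214). It had 5194 to 24840 CPM in 4 low-GFP libraries. On days 4 and 5 it had 2.63 and 1.45 CPM in low-GFP cells, and 0.352 and 0.846 CPM in CD2+ cells.

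**Figure D3:**
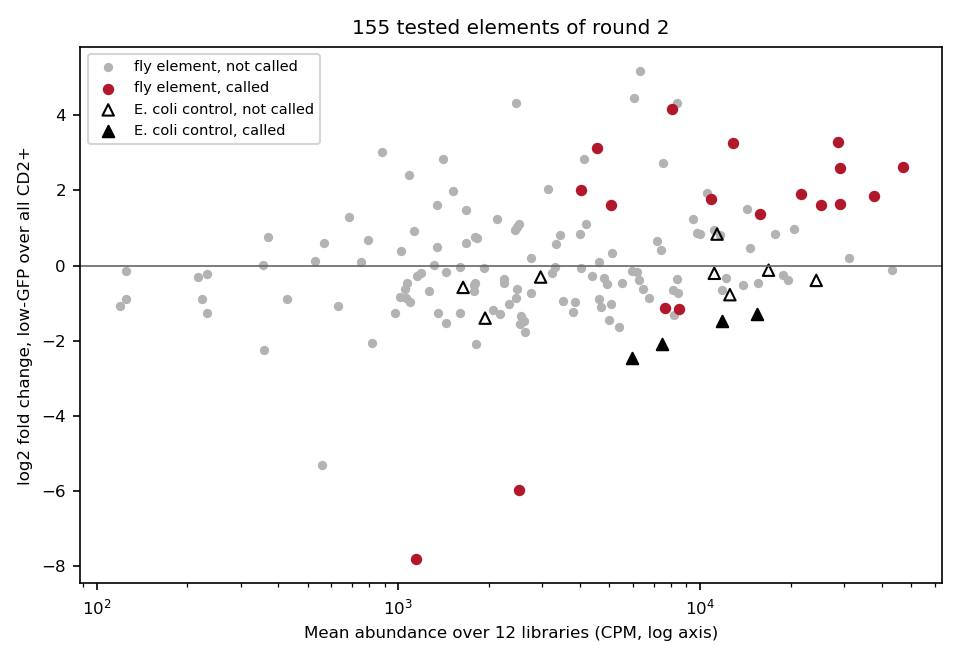
Log2 fold change, low-GFP over CD2+, against mean abundance over 12 libraries in CPM on a log axis for the 155 tested elements. Called fly elements are red, E. coli controls are triangles (filled when called), and 11 of the 12 controls lie below 0 with this TMM scaling. With E. coli scaling 5 of these turned above 0, but that scaling is set by the controls and centres them near 0 by construction.

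The elements called lower were of a different kind. The E. coli fragments were carried in the pool as controls. All 12 were tested, 4 were called lower, where 5.16% of all tested elements were, and none higher. Their median log2 fold change was -0.68. They took 8.18 ± 1.49% of counts in low-GFP libraries and 17.7 ± 1.12% in CD2+ libraries (SD, n = 6 each), lower on 6 of 6 days (exact two-sided sign-flip test, p = 0.03125, the smallest that 6 pairs allow). Ecoli_control3 had 5739, 8192 and 14210 CPM in low-GFP libraries, against 16360, 20100 and 32270 CPM in CD2+ libraries, without overlap (log2 fold change -1.29, SE 0.29, edgeR adjusted p = 0.0115). Ecoli_control24, Ecoli_control11 and Ecoli_control4 had -2.47, -2.10 and -1.47 with overlapping groups. Of the 8 controls not called, Ecoli_control23 (-1.40), Ecoli_control12 (-0.77), Ecoli_control16 (-0.58), Ecoli_control21 (-0.39), Ecoli_control22 (-0.30), Ecoli_control15 (-0.20) and Ecoli_control5 (-0.12) were below 0 and Ecoli_control7 (0.84) above it. With E. coli scaling controls 16, 21, 22, 15 and 5 turned above 0. That scaling is set by the controls themselves and centres them near 0 by construction. Shares within a library sum to a whole, and the 14 elements called higher took 31.7 to 40.7% of low-GFP counts and 11.2 to 13.2% of CD2+ counts. When libraries were scaled to the summed E. coli controls instead, 23 elements were called higher and 2 lower, and the median of all elements moved to 0.40. With total counts, 8 were called higher and 17 lower, and the median was -0.71.

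Ubx_BXD-C and ChIPCRM2078 were the 2 elements called lower with TMM, total-count and E. coli scaling alike. DESeq2 also called Ubx_BXD-C and gave no adjusted p for ChIPCRM2078. Ubx_BXD-C, a fragment named for the Hox gene Ultrabithorax, had 1.31, 52.0 and 277 CPM in low-GFP libraries, against 708, 4952 and 10320 CPM in CD2+ libraries. The groups did not overlap, and the log2 fold change was -5.98 (edgeR adjusted p = 0.0109, SE 1.31). The other fragments with Ubx in their names, CRM_Ubx_BXD-A and CRM_Ubx_BRE, had -0.04 and -0.45 and were not called. ChIPCRM2078 had 0.289, 1.20 and 228 CPM in low-GFP libraries, against 651, 1730 and 4462 CPM in CD2+ libraries, also without overlap (log2 fold change -7.81, SE 2.15, edgeR adjusted p = 0.0293). The value of 228 CPM came from day 6, and the other 5 low-GFP libraries were at or below 1.82 CPM, close to the level that 3 counts give. The call was lost in 9 of 18 leave-out fits, with adjusted p up to 0.12. CRM_1602 had 2850 to 7833 CPM in low-GFP and 8463 to 15690 CPM in CD2+ libraries, and CRM_2622 had 3441 to 6816 and 7642 to 13780 CPM. Both pairs of groups were without overlap (log2 fold changes -1.15 and -1.12, edgeR adjusted p = 0.0318 and 0.0293), and neither was called with E. coli scaling (edgeR adjusted p = 0.336 for both).

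**Figure D4:**
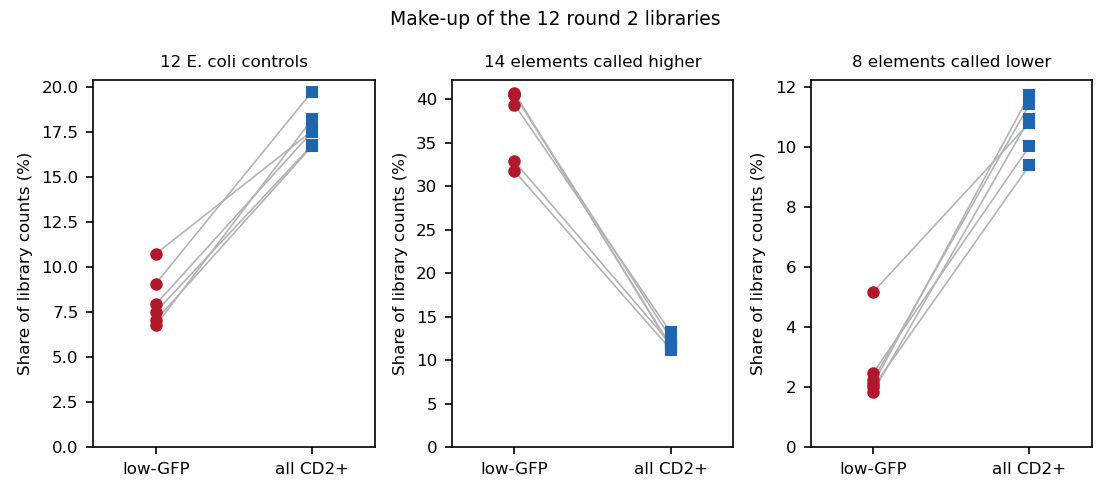
Share of library counts, in percent, in the 12 E. coli controls, the 14 elements called higher and the 8 called lower, for the 6 low-GFP (left) and 6 CD2+ libraries (right), with lines joining the libraries of a day. The E. coli share was lower in the low-GFP library of each day, while the shares of the called elements only describe what the calls selected.

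The 10 elements of highest mean abundance took 37.2 ± 4.52% of low-GFP counts and 21.3 ± 1.94% of CD2+ counts (SD, n = 6 each). This is a description only, since the mean that chose them includes the low-GFP libraries and 7 of the 10 are elements called higher. A sign-flip test was also run on this share and is not used for that reason. In CD2+ libraries an open-chromatin region with H3K27me3 was the largest on each day, and DHS+K27me3_one-hit_2281, the largest on 5 of them, had 41340 ± 13750 CPM in low-GFP and 44750 ± 11740 CPM in CD2+ cells (SD, n = 6 each; log2 fold change -0.10, edgeR adjusted p = 0.739).

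How evenly the calls held over days differed by element. Of the 22 called elements, 9 were called in all 18 fits that left out 1 day or 1 library: pnr_P3, pnr_P4, oc_otd-186, ths_Neu4_early_embryonic_enhancer, sog_shadow, gsb_fragIV and CRM_1807 among those higher, and Ecoli_control3 and Ubx_BXD-C among those lower. No call changed direction in any of them. Besides those described above, the call of CRM_1602 was lost in 15 of 18 fits, among them all that left out a day. Those of Ecoli_control24, Ecoli_control11, CRM_2622, ind_moduleBC and Ecoli_control4 were lost in 13, 12, 12, 8 and 4 of 18, and the adjusted p over these elements went up to 0.127. The paired fit to all libraries, with collection day as a block, kept all 22 calls. Its edgeR adjusted p ran from 1.53e-05 for pnr_P3 to 0.042 for CAD2_Meso-CRM-3418, with 0.000738 for ind_moduleBC. The low-GFP effect did not pass the test of a difference between experiments for any element (0% of 155; 2 at an unadjusted p under 0.05, 0 with DESeq2). With 3 days per experiment, that test could miss differences of some size. In pnr_P3 the log2 fold change was 3.10 in experiment 1 and 3.62 in experiment 2, in oc_otd-186 it was 2.73 in both, and in ths_Neu4_early_embryonic_enhancer it was 3.05 and 2.31. Other calls were less even: tup_dorsalectoderm had 2.89 and 5.51, dpp_85.8MX 1.20 and 2.16, and ChIPCRM2078 -11.0 and -4.76. Across elements, the low-GFP and CD2+ libraries of a day correlated at 0.612 to 0.809 (log2 CPM), and libraries of the same population within an experiment at 0.467 to 0.745.

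In the authors' deposited table for each experiment, at an adjusted p under 0.05, 17 elements were higher and 2 lower of 153 listed in experiment 1, and 24 higher and 1 lower of 149 listed in experiment 2. Of these, 15 were higher in both of the authors' deposited tables. They include vnd_NEE, brk_NEE-long, CRM_1734, ind_moduleA and hkb_0.6kbRIRV, which were not called in the fit over both experiments. Conversely, the called E. coli controls, CRM_1602 and CRM_2622 passed in neither of the authors' tables, and CAD2_Meso-CRM-3418 had no value in either. The calls of dpp_85.8MX, hb_lateDm1.0-lacZ and E_0_12h_dCtBP7667.region_1246 passed there in experiment 2 only, and that of ChIPCRM2078 in experiment 1 only. Ubx_BXD-C was lower in both of the authors' deposited tables, with log2 fold changes of -6.57 and -5.19.

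Round 1 compared the same populations in other collections with a pool of 576 elements, of which 173 were listed again in round 2 under the same barcodes. Most of these were scarcely sampled before: 121 of the 173 had no read in the 12 round 1 low-GFP and CD2+ libraries, and 16 had reads in all of them. Only 20 elements were therefore tested in both rounds. Their log2 fold changes had the same sign in 18 of 20, and across these elements Pearson's r was 0.782 and Spearman's rho 0.746, as a description, since elements of 1 library share its depth and scaling. Of the 4 elements called higher in round 2 and tested in round 1, oc_otd-186 was called in both (round 1 log2 fold change 1.73, SE 0.54, edgeR adjusted p = 0.0323). In all, 23% of the 331 elements tested in round 1 were called. gsb_fragIV and dpp_85.8MX had 1.41 and 2.71 in round 1 (edgeR adjusted p = 0.118 and 0.184), and E_0_12h_dCtBP7667.region_1246 had -0.86 (0.779). brk_NEE-long and hkb_0.6kbRIRV, not called in round 2, were called in round 1, at 2.64 and 2.31 (edgeR adjusted p = 0.0106 and 0.0167). The test of the difference itself, in a fit scaled over the shared elements only, called 3 of 144 elements (2.08%), oc_otd-186 among them, with 1.94 for round 2 minus round 1. The separate fits gave oc_otd-186 2.63 in round 2 and 1.73 in round 1, which lie closer together than 1.94. For gsb_fragIV they gave 1.84 and 1.41, against a difference of 1.51 in the joint fit. The size of such a difference thus depends on the fit and its scaling. The share of 2.08% is low by construction. Of the 141 shared elements tested in round 2, 93 had no round 1 read, and such elements could not differ. With total counts no element was called. Ecoli_control22 was called higher in round 1 (2.23, edgeR adjusted p = 0.0269) and had -0.30 in round 2.

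**Figure D5:**
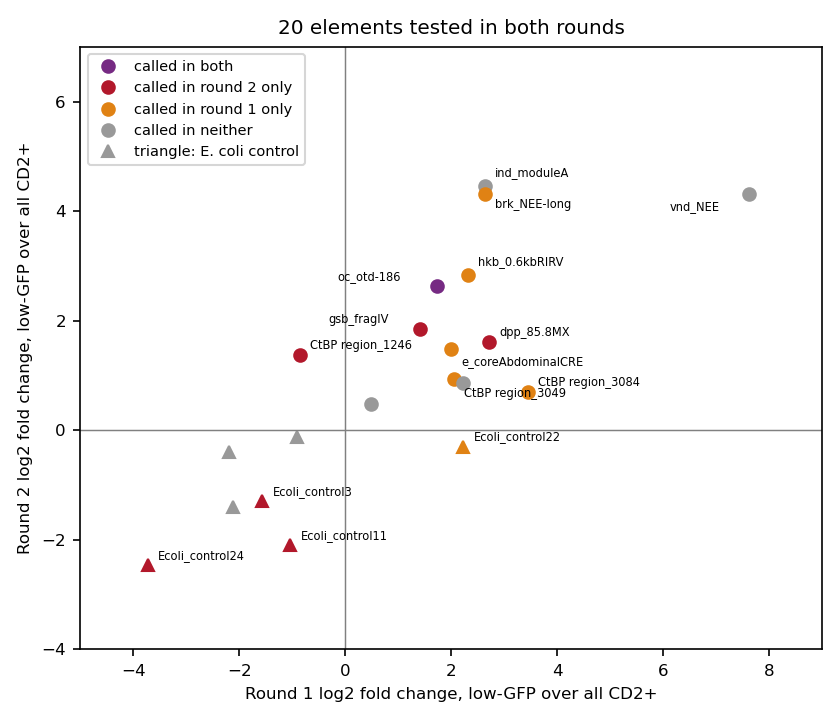
Round 2 against round 1 log2 fold change, low-GFP over CD2+, for the 20 elements tested in both rounds, coloured by where they were called, with triangles for E. coli controls. The signs are the same for all but E_0_12h_dCtBP7667.region_1246 and Ecoli_control22.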

How the data were processed

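The authors deposited read counts per barcoded element for every library, separately for read 1 and read 2, and per experiment a comparison table whose log2 fold changes and adjusted p-values were used only where named. The submitters' processing notes name DESeq. No version, mapper or mapping reference is named in the sources used here. An empty cell was taken as 0. Groups came from titles, and the members, the gene lists and the naming rule were chosen with earlier results of these data known.

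Read 1 counts of all listed elements were fitted with edgeR 4.0.16 in R 4.3.3 (filterByExpr, minimum count 10, TMM scaling, quasi-likelihood test, population and experiment as terms, Benjamini-Hochberg adjustment over all elements tested). CPM values are TMM-scaled. The SE is the absolute log2 fold change divided by the square root of F. Daily log2 differences used a prior count of 2. The log2 counts of both reads had a correlation of at least 0.997. Since PCR copies carried no molecular identifiers, the floor of 3 counts covers counting error only. The labels do not say that days used separate parents, so p-values measure the spread between these collections.

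The dates in the titles mark a shared collection day, which pairs the populations. The main fit left this pairing out and used the experiment as its term. The fit with collection day as a block is the paired alternative. Deviations from the group means correlated above 0.1 in 6 of 6 pairs (0.101 to 0.64). Elements were named by rule: called elements with the same sign on 6 of 6 days (up to 15 higher and 12 lower), all E. coli controls, the extremes of each list, all fragments of a called gene, and the most abundant elements. Others (vnd, brk and rho elements, SoxN_5830, pdm2_CRM6 and the CRM_Ubx elements) were chosen after their values were seen. Gene symbols were read from element names, and 77 matched a symbol in RefSeq's Release 6 table. CD2- libraries and round 1 comparison tables were not used here. The fit was also run on simulated counts with known changes. These were drawn without a shared day effect, so that check does not cover the pairing by day. Alternatives were other scalings, DESeq2 1.42.0, no filter, the block, read 2, single experiments and leave-outs.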

Additional observations from a re-analysis of the deposited data

Results flagged for a closer look

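Among 70 groups of 6 values, taken over the called elements and the library shares, 5 held a value standing apart from the other five by Dixon's criterion for 6 samples, where chance gives about 1 in 20 groups. In pnr_P3 the CD2+ library of day 1 had 9873 CPM, against 5260 CPM for the next highest. The daily log2 difference of ths_Neu4_early_embryonic_enhancer was 4.28 on day 1, with 2.67 the next highest. That of tup_dorsalectoderm was 11.4 on day 5, with 4.86 the next highest, and its CD2+ library of that day was at 5.08 CPM. ChIPCRM2078 had 228 CPM in the low-GFP library of day 6, against 1.82 CPM for the next highest, and its daily log2 difference that day was -1.51, with -9.26 the next.

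A test of round by population, scaled over the shared elements only, called 3 elements, and 0 with total counts. Of the 141 shared elements tested in round 2, 93 had no round 1 read, and such elements could not differ. The round 2 minus round 1 log2 difference was 1.94 for oc_otd-186, -8.37 for DHS+K27me3_one-hit_2281 and -8.83 for btd_R-Ss (edgeR adjusted p = 0.0389 each). Separate fits gave oc_otd-186 log2 fold changes of 2.63 in round 2 and 1.73 in round 1, which lie closer together than 1.94. DHS+K27me3_one-hit_2281 and btd_R-Ss had 1643 and 290 counts over 6 low-GFP libraries of round 1, against 3 and 1 over 6 CD2+ libraries, so their differences rest on few round 1 reads.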

How the results depend on the processing

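With collection day as a replicate block, 31 elements were called, 20 higher and 11 lower, and all 22 main calls were among them. The difference between rounds gave 6 calls with the replicate block and 0 with total counts. The number of calls was 8 in experiment 1 alone and 8 in experiment 2 alone. Elements called higher numbered 8 with total counts, 23 with E. coli scaling, 7 in experiment 1 and 8 in experiment 2, and those called lower 17, 2, 1 and 0. Leaving out 1 day or 1 library gave 9 to 33 calls, 7 to 20 higher and 2 to 13 lower, with the fewest without day 2 (7 higher, 2 lower) and the most without the low-GFP library of day 4 (20 and 13). Without day 1 there were 9 higher and 3 lower, without day 3 9 and 5, without day 5 9 and 2 and without day 6 10 and 4. The single libraries whose loss moved either count by over 1.5 times were the low-GFP libraries of days 1 (9 and 3), 2 (10 and 3), 4, 5 (9 and 3) and 6 (9 and 4) and the CD2+ libraries of days 1 (10 and 5), 2 (8 and 2), 5 (10 and 5) and 6 (10 and 4). The experiment-alone and leave-out fits use fewer libraries.

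List medians moved with the scaling, total counts first and E. coli scaling second: gap, terminal and head -0.39 and 0.69, CtBP -0.98 and 0.16, Groucho -0.75 and 0.38, open chromatin with H3K27me3 -0.93 and 0.19, E. coli controls -1.17 and -0.0319, and numbered CRMs 0.20 with E. coli scaling. The E. coli median with E. coli scaling is near 0 by construction, since the controls set that scaling. The medians of dorsal ectoderm and neuroectoderm stayed above 0 under both (1.51 and 2.67, 1.72 and 2.88).

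No called element changed sign under these alternatives. E. coli scaling, which the controls themselves set, moved the median over all 155 tested elements from -0.20 to 0.40. Among the elements named by rule but not called 14 changed sign, and the cause was not tested. Elements outside the rule changed sign too: SoxN_5830 was 0.20, CRM_Ubx_BRE 0.56 and CRM_Ubx_BXD-A 0.70 in experiment 2 alone, pdm2_CRM6 was 0.83 in experiment 1 alone, and over all 155 tested elements 7 changed sign with the replicate block, none of them called. With E. coli scaling the log2 fold change became 0.52 for DHS+K27me3_one-hit_2281, 0.40 for Ecoli_control15, 0.11 for Ecoli_control16, 0.25 for Ecoli_control21, 0.33 for Ecoli_control22, 0.51 for Ecoli_control5, 0.39 for Sox15_regionC, 0.20 for cas_csc-7a, 0.51 for hb_HG4-6, 0.18 for ins_SF1_assoc_peak_center and 0.33 for y_wing, of which only DHS+K27me3_one-hit_2281 passed the threshold (edgeR adjusted p = 0.0388). With total counts DHS+K27me3_one-hit_402 became -0.30. In experiment 1 alone Ecoli_control15 was 0.0757, Ecoli_control5 0.18, Sox15_regionC 0.0127, SoxN_565 0.0483 and hb_HG4-6 0.12. In experiment 2 alone hb_HG4-6 was 0.0025, ins_SF1_assoc_peak_center 0.92 and y_wing 0.89. With population alone y_wing was 0.26, and with the replicate block hb_HG4-6 was 0.32. Over the fits that left out a day or a library, the value ran from -0.25 to 0.0122 for DHS+K27me3_one-hit_2281, -0.0578 to 0.37 for DHS+K27me3_one-hit_402, -0.48 to 0.31 for Ecoli_control15, -0.22 to 0.029 for Ecoli_control5, -2.21 to 0.31 for h_h7AF, -0.94 to 0.45 for hb_HG4-6, -0.49 to 0.0651 for Sox15_regionC and -0.70 to 0.42 for y_wing.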

Other observations

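Of the 33 elements that were not tested, 17 had reads. CAD2_Meso-CRM-2819 had 7212 counts over 6 low-GFP libraries, all in 1 library, against 13 over 6 CD2+ libraries. amosC had 3730 counts in low-GFP and 74 in CD2+ libraries, with 3342 of them in 1 low-GFP library. E0_12_GROAviva_ChIP_chip.region_26 had 1593 and 25762, with 11354 in 1 CD2+ library. These were chosen after their values were seen. tin_tinD, a fragment of the heart and mesoderm gene tinman, had 4433 counts in low-GFP and 2246 in CD2+ libraries, with 3858 in 1 low-GFP library. lbl_SBMs, the 1 tested element of the mesoderm and muscle list, had 3658 to 17310 CPM in low-GFP and 1481 to 16060 CPM in CD2+ libraries and was not called (log2 fold change 0.65, edgeR adjusted p = 0.455).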
